A study of Mus musculus with 4 samples.

Results

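The 286 genes described here are coding genes whose transcripts were lower after Pam3Cys4 in mouse bone marrow cells, both without and with an shRNA against the long noncoding RNA lncRNA-COX2. They were selected on the measured values: a level of at least 5 CPM (read counts scaled to the library's total of gene reads) in both unstimulated libraries, and a ratio of CPM after Pam3Cys4 to CPM before of 0.5 or less in both shRNA states. Of 37681 gene IDs in the tables, 20210 were coding and 8414 of these passed the CPM minimum. Without shRNA 745 genes (8.85% of the 8414) were at or below a ratio of 0.5, and with shRNA 389 (4.62%). Both conditions held for 305 genes (3.62%), which were 40.9% of the genes lower without shRNA and 78.4% of those lower with shRNA. Left out by name were 19 of them, namely Cxcr4, Lpin1, Sesn1, Ccne1, E2f1, Mcm4, Mcm7 and 12 genes of the Slc transporters, which left 286. Because the ratios chose the genes, their Pam3Cys4 values are given as a description and no test was made of them.

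Pam3Cys4 is a synthetic lipopeptide that imitates bacterial lipoproteins and is sensed by TLR2 paired with TLR1. The receptor signals through MyD88 to NF-kB and MAP kinases and is best known for inducing cytokine and chemokine transcripts in macrophages. The same signals are also known to lower many transcripts of resting or dividing macrophages, among them genes of the cell cycle, of scavenging and of G protein-coupled receptors. A lower CPM can come from less transcription, faster decay, fewer cells carrying the transcript or a larger share of other RNA, and these cannot be told apart in these libraries.

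Wild-type C57BL/6 mice gave the bone marrow cells, which were grown in DMEM containing L929 supernatant (20%) and fetal bovine serum (10%). L929 cells secrete M-CSF, which drives macrophage growth. The 4 groups were unstimulated cells without shRNA, cells without shRNA given 100 nM Pam3Cys4 for 5 h, and the same pair with shRNA treatment targeting lncRNA-COX2, and each group was 1 library. In the titles, libraries without shRNA bear the letters EV, which the labels do not explain, and the level of the targeted RNA was not analysed here. With 1 library per group no difference was set against the spread between cultures or animals, and the 95% intervals below cover counting error only.

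Gene reads numbered 47385277 and 51979051 without shRNA (unstimulated, then Pam3Cys4) and 65826838 and 59400238 with shRNA. Of 14 macrophage markers 12 or 13 were at 5 CPM or more in every library, with a summed level of 7700 to 9918 CPM, and Mertk was the only one of them among the 286 genes. Marker sums for granulocytes, mast cells, B cells, T and NK cells, erythroid cells and fibroblasts were between 0.0211 and 11.7 CPM, those for dendritic cells between 0.593 and 26.0 CPM, for endothelial cells between 6.70 and 15.8 CPM, and for stem and progenitor cells between 24.8 and 41.1 CPM. The summed megakaryocyte markers, 1 of 6 of which reached 5 CPM, differed with the shRNA state (154 and 217 CPM without, 17.2 and 15.3 CPM with). The Y-linked genes Ddx3y, Kdm5d and Uty were at 0.077 CPM or less in both libraries without shRNA and at 4.86 to 18.8 CPM in both with shRNA. The shRNA states may therefore not have come from the same mix of animals, which was not tested. In every ratio of shRNA to no shRNA, the shRNA and any difference in animals or cells cannot be told apart.

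Together the 286 genes took 2.17% of gene reads in unstimulated cells without shRNA and 0.707% after Pam3Cys4, and 1.83% and 0.746% with shRNA. The median of their Pam3Cys4 ratios was 3.07-fold below 1 without shRNA and 2.51-fold with shRNA, against 1.15-fold and 1.10-fold for all 8414 genes. In both states the ratio was at most 0.25 for 15 genes, and 166 genes lay above 0.4 in the state with the smaller change. The lowest count of any of the 286 genes in any library was 27. The counting interval lay wholly below 1 in both states for all 286, and wholly at or below 0.5 in both states for 217. The median of all genes being below 1 depends on scaling. With edgeR's TMM factors in place of library totals it moved from -0.21 to -0.03 on the log2 scale without shRNA and from -0.14 to -0.01 with shRNA, and 192 of the 286 genes still met the rule. The same change moved the split of 2-fold lower to 2-fold higher genes from 745 against 322 to 511 against 415 without shRNA, and from 389 against 277 to 281 against 348 with shRNA.

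**Figure D1:**
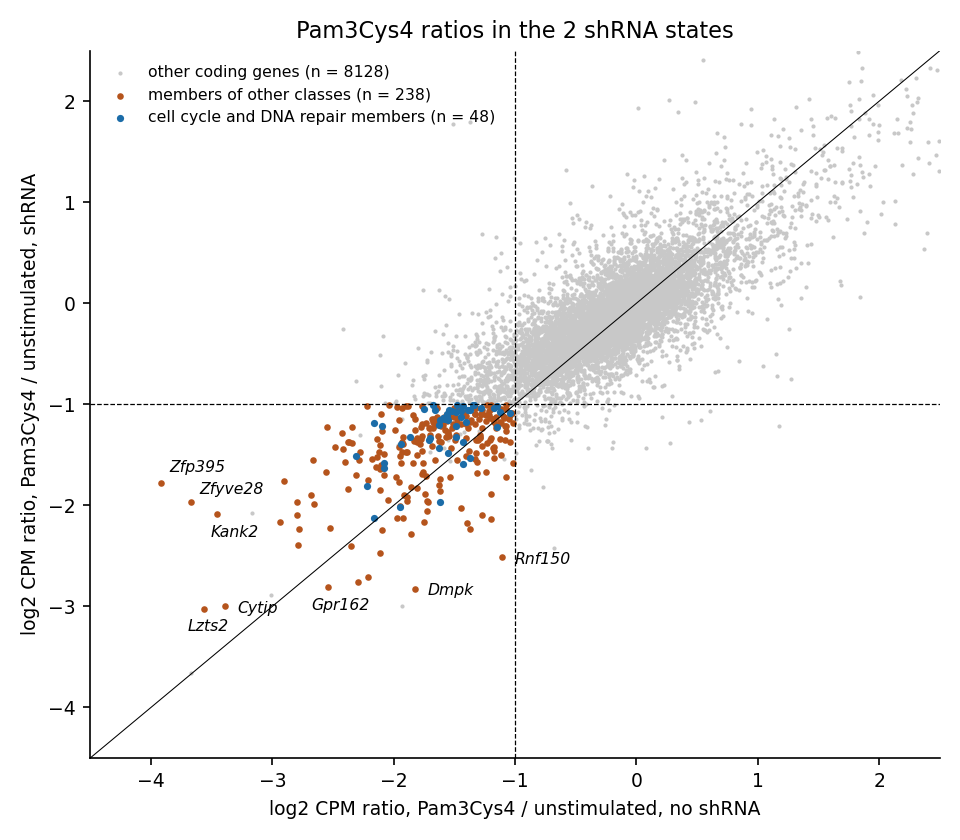
Each point is a coding gene with at least 5 CPM in both unstimulated libraries; the x axis is the log2 CPM ratio of Pam3Cys4 to unstimulated cells without shRNA and the y axis the same with shRNA, dashed lines mark a ratio of 0.5, the solid line marks equal ratios, and 55 genes lie outside the plotted range. The 286 genes fill the lower left quadrant by construction, and 207 of them lie above the line of equal ratios, where the change was larger without shRNA. Of all 8414 genes 5090 had the lower ratio without shRNA.

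The genes with the largest changes in both states came from many classes. Lzts2, a leucine zipper protein linked to beta-catenin export, was at 6.14 CPM before and 0.519 CPM after Pam3Cys4 without shRNA, and at 11.5 and 1.41 CPM with shRNA. That is 11.8-fold lower (7.96 to 18.3) and 8.12-fold lower (6.48 to 10.3), the lowest value of the larger ratio among the 286. Cytip, which binds cytohesins and dampens leukocyte adhesion, went from 8.67 to 0.827 CPM without shRNA and from 8.49 to 1.06 CPM with shRNA. Both Cytip libraries before stimulation were thus about level, and so were both after it. The orphan receptor gene Gpr162 was at 12.9 and 2.21 CPM without shRNA and at 94.98 and 13.6 CPM with shRNA, so the library with shRNA after Pam3Cys4 was about as high as the unstimulated one without it. Sgsh, a lysosomal sulfatase that degrades heparan sulfate, was at 41.6 and 6.00 CPM without shRNA and at 93.0 and 17.7 CPM with shRNA. Map2k6, a MAP kinase kinase that activates p38, was at 12.8 and 2.62 CPM without shRNA and at 7.88 and 1.16 CPM with shRNA. For Map2k6 the fold was larger with shRNA (6.79, interval 5.27 to 8.86) than without (4.90, interval 4.06 to 5.94), and these intervals overlap. Among the other leading genes, Zdhhc14 encodes a palmitoyltransferase, Tox2 an HMG box protein and Pdk2 a kinase that inhibits pyruvate dehydrogenase.

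**Figure D2:**
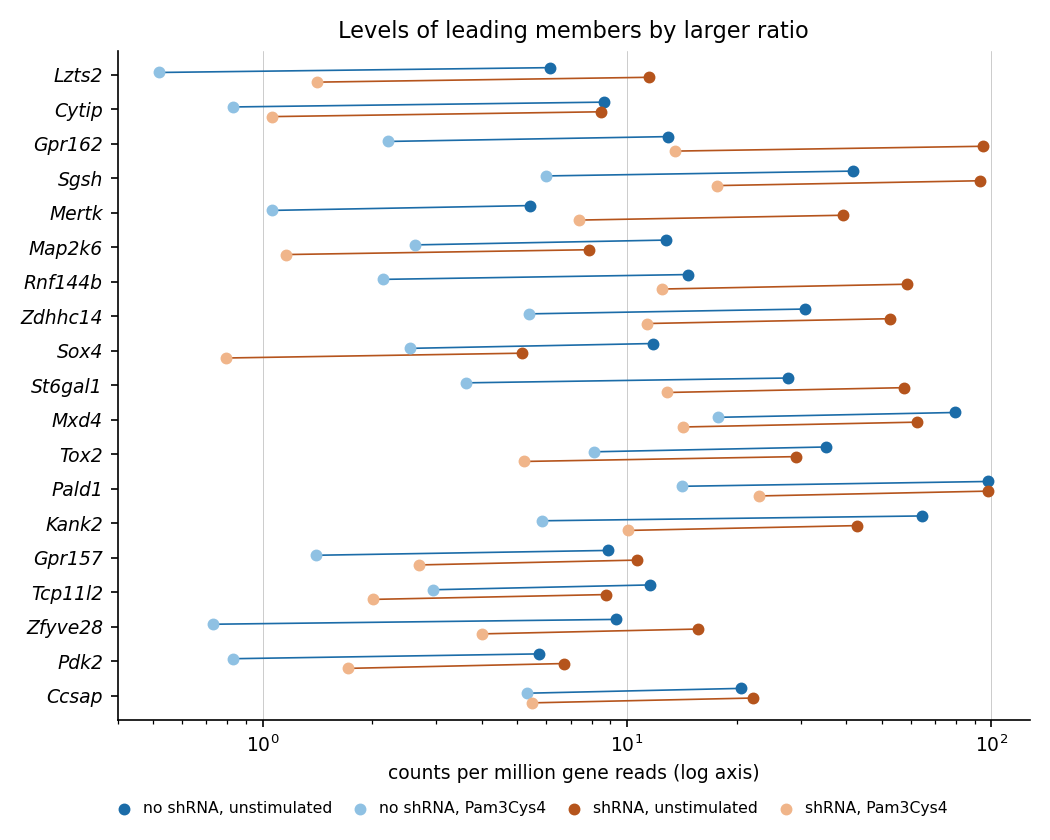
Levels of 19 of the 20 genes with the lowest value of the larger of their ratios, in CPM on a log axis, with 1 point per library and a line joining the unstimulated and Pam3Cys4 libraries of each shRNA state. In all 19 both lines run to lower values after Pam3Cys4, while the shRNA states themselves are far apart for Gpr162, Mertk and Rnf144b and nearly level for Cytip and Ccsap.

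Genes of DNA replication, DNA repair, chromosome segregation and cell cycle control, 4 classes described together here, held 48 of the 202 genes that were given a class. Tk1, the thymidine kinase of S phase, was at 88.8 and 21.0 CPM without shRNA and at 41.1 CPM after Pam3Cys4 with shRNA, 4.23-fold (3.95 to 4.52) and 2.99-fold (2.86 to 3.13) lower than before stimulation. Gmnn, the geminin that blocks relicensing of origins, was at 61.7 and 14.6 CPM without shRNA and at 46.5 and 15.0 CPM with shRNA. Uhrf1, which brings the maintenance methyltransferase to newly copied DNA, was at 391 and 139.8 CPM without shRNA and at 370.5 and 147.9 CPM with shRNA, and its partner Dnmt1 was 2.43-fold and 2.05-fold lower. The remaining replication genes included the polymerase subunits Pold1 and Pole2, the single-strand binding subunit Rpa1, the clamp-associated factor Pclaf and the checkpoint mediator Clspn, and the folds of all 14 replication genes ran from 2.26 to 4.23 without shRNA and from 2.01 to 3.10 with shRNA.

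Among the repair genes Ung, the uracil glycosylase of base excision repair, was at 69.5 and 14.9 CPM without shRNA and at 42.1 and 12.1 CPM with shRNA, the largest change of the 13 in both states. Msh6, of mismatch repair, was at 122 and 37.4 CPM without shRNA and at 70.7 and 27.7 CPM with shRNA. Other genes of that pathway, looked up after these values were seen, missed the rule: Msh3 was 2.67-fold lower without shRNA and 1.504-fold lower with shRNA, and Pms2 1.87-fold and 1.495-fold. Exo1, Brca2, Chek2, Brip1, Fancm, Neil3 and Recql4 were also members. In the segregation class were the condensin subunits Ncapd2 and Ncapg2, the centromere proteins Cenph and Cenps, the cohesion factors Cdca5 and Esco2, and the microtubule protein Ccsap, which was 3.87-fold and 4.04-fold lower. Transcription factors of the cycle were Mxd4, a MAX partner that opposes MYC (79.4 and 17.8 CPM without shRNA, 62.3 and 14.3 CPM with shRNA), the repressors E2f7 and E2f8, the DP partner Tfdp2, Mybl2, Tfap4 and the pocket protein Rbl2, together with the CDK inhibitor Cdkn2c. Opposing regulators thus stood on the same side, since Cdkn2c, Rbl2, Mxd4, E2f7 and E2f8 are known to restrain cycling.

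This group depended more on scaling than the rest. With TMM factors 25 of its 48 genes still met the rule, against 167 of the 238 other genes. Its median was 2.94-fold lower without shRNA and 2.23-fold with shRNA, against 3.12-fold and 2.55-fold in the other genes, and 42 of the 48 had the larger change without shRNA. Among all 8414 genes the ratio was lower without shRNA in 5090. In the list of 54 measured genes of DNA replication and S phase, chosen with earlier results of these data known, 28 were at or below 0.5 without shRNA and 10 with shRNA, and the same 10 in both states (18.5%, against 3.62% of all genes) or 5 with TMM factors. The list's median log2 ratio was -1.04 and -0.70, or -0.86 and -0.57 with TMM factors. By library totals 53 of the 54 had a ratio below 1 without shRNA and 51 with shRNA, and Orc1, an origin recognition subunit, had a ratio of 1.34 with shRNA. Of 58 DNA repair genes 19 and 7 were at or below 0.5, with medians of -0.81 and -0.54, and 7 were in both states (12.1%), 4 with TMM factors. Of 40 genes of mitosis and G2/M 7 were at or below 0.5 without shRNA and 1 with shRNA. Only Ncapd2 of these 40 was in both states (2.5%, below the 3.62% of all genes), and 0 with TMM factors. The medians of the mitosis list were -0.81 and -0.34, and all 40 had a ratio below 1 without shRNA and 39 with shRNA. Genes such as Cdc6 (2.75-fold and 1.66-fold lower), Rpa2 (2.52-fold and 1.79-fold) and Nusap1 (2.59-fold and 1.88-fold) lay outside the rule only through the state with shRNA.

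Promoter sequence was examined because many replication genes are known targets of E2F factors. RefSeq promoters (GRCm38.p6, 250 bases before to 50 after each start) were found for 230 of the 286 genes, 321 promoters in all, and for 6796 of the 8414 genes. The E2F motif searched, TTTCCCGC on either strand, was in 11 of 49 promoters (22.4%) of the cell cycle and repair members, in 1.47% of promoters of the other members and in 2.26% of the 8711 promoters of all measured genes. Genes of the cell cycle and repair lists that were not members held it in 9 of 119 promoters (7.56%). The cell cycle and repair members were classed by hand after selection, whereas the lists were sets of symbols that include mitosis genes. The shares of these sets are therefore not a matched comparison. The promoters of Brca2, Chek2, E2f7 and Gins3, the last a subunit of the GINS helicase complex, are shown up to the start site because every match in them lies before it. The clock gene Per3 is shown with them because it held 2 copies of another motif, the D-box TTATGTAA. Capitals mark the motif or its reverse complement, and each sequence is written 5' to 3' on the strand of the gene.
Brca2 (GRCm38.p6, chr5:150522371-150522620, plus strand): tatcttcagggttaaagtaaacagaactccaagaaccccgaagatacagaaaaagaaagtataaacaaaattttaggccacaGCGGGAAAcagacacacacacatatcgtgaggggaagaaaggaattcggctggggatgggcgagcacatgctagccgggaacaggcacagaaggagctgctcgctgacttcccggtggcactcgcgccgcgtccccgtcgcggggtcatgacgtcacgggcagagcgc
Chek2 (GRCm38.p6, chr5:110839733-110839982, plus strand): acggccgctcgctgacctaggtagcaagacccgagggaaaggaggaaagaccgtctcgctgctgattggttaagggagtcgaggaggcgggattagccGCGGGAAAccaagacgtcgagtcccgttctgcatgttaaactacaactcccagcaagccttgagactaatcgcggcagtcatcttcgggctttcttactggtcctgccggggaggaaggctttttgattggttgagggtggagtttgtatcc
E2f7 (GRCm38.p6, chr10:110745189-110745438, plus strand): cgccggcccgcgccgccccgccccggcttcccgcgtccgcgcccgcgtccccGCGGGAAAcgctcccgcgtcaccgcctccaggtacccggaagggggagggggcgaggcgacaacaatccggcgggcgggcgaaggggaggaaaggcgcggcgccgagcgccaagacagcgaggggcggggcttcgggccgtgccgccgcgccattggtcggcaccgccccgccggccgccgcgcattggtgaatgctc
Gins3 (GRCm38.p6, chr8:95633309-95633558, plus strand): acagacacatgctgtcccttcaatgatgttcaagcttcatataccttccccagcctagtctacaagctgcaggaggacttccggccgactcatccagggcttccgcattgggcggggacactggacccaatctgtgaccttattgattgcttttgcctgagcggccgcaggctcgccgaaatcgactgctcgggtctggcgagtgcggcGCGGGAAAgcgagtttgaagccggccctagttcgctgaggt
Per3 (GRCm38.p6, chr4:151044666-151044915, minus strand): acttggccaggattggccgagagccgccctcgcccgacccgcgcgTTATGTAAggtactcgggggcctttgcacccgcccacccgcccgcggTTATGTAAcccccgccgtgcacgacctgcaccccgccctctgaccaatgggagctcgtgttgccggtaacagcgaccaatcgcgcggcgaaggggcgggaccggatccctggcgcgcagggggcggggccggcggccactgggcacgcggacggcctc
The match begins 168 bases before the start in Brca2, 152 in Chek2, 198 in E2f7 and 41 in Gins3. In the remaining 7 of the 11 promoters, those of Atad5, Cenps, Msh6, Ncapg2, Pclaf, Pold1 and Prps2, at least 1 match spans or follows the start. The CCAAT box was in 55.1% of promoters of the cell cycle and repair members, in 60.5% of promoters of listed genes that were not members and in 37.7% of all. The D-box was in 0.623% of promoters of members and 0.471% of all, so that apart from Per3 and Map2k6 it was not found in these windows. An NF-kB motif (GGAANTTCC) was in 0.935% of promoters of members and 1.11% of all, and the cyclic AMP element TGACGTCA in 0.935% and 3.20%. A match is a description of the letters and not evidence of binding.

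Receptors and regulators of G protein signalling numbered 14, with medians of 4.03-fold lower without shRNA and 3.05-fold with shRNA, and 13 of them met the rule with TMM factors. Gpr183, the oxysterol receptor that guides leukocyte migration, was at 73.5 and 17.4 CPM without shRNA and at 78.4 and 24.1 CPM with shRNA. Lpar5, a receptor for lysophosphatidic acid, was at 51.1 and 11.0 CPM without shRNA and at 67.3 and 20.0 CPM with shRNA. S1pr1, the sphingosine 1-phosphate receptor of leukocyte egress, was at 34.9 and 8.97 CPM without shRNA and at 44.0 and 19.8 CPM with shRNA. For these receptors the resting levels of the shRNA states were within 1.32-fold of each other, and the levels after Pam3Cys4 were higher with shRNA. C5ar2, the second C5a receptor, was 4.32-fold and 3.12-fold lower. Members acting downstream of receptors included Rgs2, which speeds GTP hydrolysis by G alpha subunits. It was at 61.0 and 14.8 CPM without shRNA and at 45.5 and 11.8 CPM with shRNA, and Arrb1, a beta-arrestin that desensitizes receptors, was at 306 and 125.6 CPM, then 268 and 108.5 CPM. These were the only members among 35 measured G protein and RGS regulator genes (5.71%, near the 3.62% of all genes), and Pde4b of that family was at least 2-fold higher in both states. Of 18 measured genes of the Gpr and adhesion receptor families 7 were lower in both states (38.9%, against 3.62% of all genes), namely Gpr162, Gpr157, Gpr176, Gpr183, Gpr155, Adgrl1 and Gpr19. With TMM factors 6 of 18 were. Gpr84 was at least 2-fold higher in both states, so the family did not move one way.

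Genes of clearance of dying cells included a ligand and its receptor. Gas6, the bridging ligand that ties phosphatidylserine to TAM receptors, was at 1039 and 223 CPM without shRNA and at 78.1 and 38.5 CPM with shRNA, 4.66-fold (4.57 to 4.75) and 2.03-fold (1.93 to 2.13) lower. Mertk, the TAM receptor of macrophages, was at 5.40 and 1.06 CPM without shRNA and at 39.3 and 7.41 CPM with shRNA, 5.11-fold (3.80 to 6.96) and 5.30-fold (4.79 to 5.88) lower. The ligand was thus higher without shRNA and the receptor higher with it, and both were lower after Pam3Cys4. C1qa, a chain of the complement opsonin C1q, was 2.25-fold and 2.89-fold lower, while C1qb was 1.42-fold and 1.54-fold lower and C1qc 1.40-fold and 1.64-fold. The other TAM receptor genes were low, Axl at 0.423 to 6.84 CPM and Tyro3 at 0.077 CPM or less. None of Gas6, Mertk and C1qa met the rule with TMM factors, Gas6 and C1qa through the ratio and Mertk through the CPM minimum.

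Prostanoid synthesis was divided. Ptgs1, the constitutive cyclooxygenase COX-1, was at 81.0 and 24.3 CPM without shRNA and at 71.0 and 19.1 CPM with shRNA. Hpgds, the hematopoietic prostaglandin D synthase, was at 127 and 40.0 CPM without shRNA and at 83.2 and 37.7 CPM with shRNA, and Tbxas1, the thromboxane synthase, at 43.5 and 13.95 CPM, then 24.4 and 11.2 CPM. All 3 were lower in both states, while Ptgs2, the inducible COX-2, was at 14.9 and 833 CPM without shRNA and at 5.17 and 281 CPM with shRNA. Ptges, the inducible prostaglandin E synthase, was also higher after Pam3Cys4 (3.04 and 12.5 CPM without shRNA, 1.22 and 5.99 CPM with shRNA). These companion genes were looked up after the members were known.

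Secreted factors, matrix genes and their receptors made up 15 members, and several of these took more reads than most of the 286. Plau, the urokinase protease of plasminogen activation, was at 1783 and 461 CPM without shRNA and at 212 and 79.0 CPM with shRNA. Jag2, a Notch ligand, was at 358 and 108 CPM without shRNA and at 18.9 and 4.53 CPM with shRNA, so that its highest level with shRNA was below its lowest without. Angptl2, a secreted angiopoietin-like factor, was at 325 and 73.5 CPM without shRNA and at 36.0 and 11.7 CPM with shRNA. Igfbp4, which binds insulin-like growth factors, was at 498 and 168.8 CPM without shRNA and at 368 and 167.8 CPM with shRNA, level between the states after stimulation. Receptors in this class included Tgfbr1 and Igf1r, 2.81-fold and 2.97-fold lower without shRNA and 2.55-fold and 2.49-fold with shRNA, and both had higher levels with shRNA before and after Pam3Cys4. Smad3, the transducer of TGF-beta receptors, was 3.82-fold and 2.05-fold lower, whereas the type II receptor Tgfbr2 was 1.57-fold and 1.56-fold lower, Smad2 had ratios of 1.20 and 1.24, and Smad4 of 1.13 and 0.98. The integrin subunits Itga6 and Itgb5 were members, and Itga5 and Itgal were at least 2-fold higher in both states.

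Transcription factors outside the cell cycle numbered 21. Lyl1, a basic helix-loop-helix factor of early hematopoiesis, was at 165.9 and 43.1 CPM without shRNA and at 213.8 and 71.2 CPM with shRNA. Tfeb, a master factor of lysosome biogenesis, was at 51.9 and 10.7 CPM without shRNA and at 52.8 and 18 CPM with shRNA. In these genes the resting levels differed by at most 1.29-fold between shRNA states. Cebpa was 2.41-fold and 2.66-fold lower, while its relatives Cebpb and Cebpd were higher after Pam3Cys4 (90.6 and 281 CPM without shRNA, 113 and 404 CPM with shRNA for Cebpb). Of 29 measured myeloid factors 5 were lower in both states, among them Lyl1, Tfeb, Cebpa and Nfatc1 (17.2%, against 3.62% of all genes), or 4 with TMM factors, and Ets2, Cebpb and Cebpd were at least 2-fold higher in both. Spi1, which encodes PU.1, had 1.57-fold and 1.91-fold higher levels after Pam3Cys4, so factors of the same lineage lay on both sides. Sox4, Nfia, Etv5, Zfp395 and Zfp704 were further members. The 10 chromatin regulators included the Polycomb genes Cbx2, Cbx6 and Ezh2, the demethylase Kdm2b and the histone methyltransferase Kmt5c. Of 105 measured genes of chromatin regulator families 5 were lower in both states (4.76%, near the share of all genes), 3 with TMM factors, and Kdm6b, Arid3a and Tet2 were at least 2-fold higher in both.

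Output genes of the circadian clock were lower with little difference between the shRNA states. Tef, a PAR bZIP factor that binds the D-box, was at 60.4 and 17.8 CPM without shRNA and at 62.3 and 19.3 CPM with shRNA. Nr1d2, the repressor REV-ERB beta, was at 18.3 and 5.39 CPM without shRNA and at 12.2 and 3.81 CPM with shRNA, and Per3 was at 8.19 and 2.94 CPM, then 6.56 and 2.24 CPM. The other measured clock genes missed the rule. Clock was at 44.0 and 47.9 CPM without shRNA and at 30.4 and 42.7 CPM with shRNA. Per1 was at 43.8 and 82.0 CPM, then 35.8 and 63.8 CPM. Tef, Nr1d2 and Per3 met the rule with either scaling, 3 of the 13 measured clock genes (23.1%, against 3.62% of all genes). The median of the 13 was -0.06 and 0.05 on the log2 scale.

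Signalling and vesicle genes made up several smaller classes. Among 18 small GTPases and their regulators Rab3il1, an exchange factor for Rab proteins, was at 380 and 76.5 CPM without shRNA and at 179 and 55.1 CPM with shRNA. Rasgrp3 and Rasa3, which respectively activate and inactivate Ras family GTPases, were 5.16-fold and 5.08-fold lower without shRNA and 2.58-fold and 2.34-fold lower with shRNA. An activator and an inhibitor of the same switch were therefore both lower. Of 58 measured Ras, Rap, Arf and Rab regulators 7 were lower in both states (12.1%), and 6 with TMM factors. The 12 kinase genes included Dmpk, the myotonic dystrophy kinase (180 and 50.8 CPM without shRNA, 25.3 and 3.57 CPM with shRNA), Mknk2, which phosphorylates eIF4E (382 and 185.6 CPM, then 394 and 152 CPM), and Deptor, an inhibitor of mTOR. Of 78 measured MAP and related kinase genes 2 were lower in both states, Map2k6 and Prkag2 (2.56%, below the share of all genes), and Mapkapk2 and Stk40 were at least 2-fold higher in both. The 12 ubiquitin genes included Rnf144b (14.7 and 2.14 CPM, then 58.8 and 12.4 CPM) and Klhl6, but of 168 measured ubiquitin ligase genes only 9 were lower in both states (5.36%), close to the 3.62% of all genes.

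Lipid genes numbered 13. Cerk, the ceramide kinase, was at 313 and 99.1 CPM without shRNA and at 420 and 182 CPM with shRNA. Sgpp1, the phosphatase of sphingosine 1-phosphate, was at 121 and 28.2 CPM without shRNA and at 52.7 and 24.7 CPM with shRNA, and Kdsr, of sphingolipid synthesis, was 3.34-fold and 3.26-fold lower. No list of sphingolipid genes was examined, so their share is not known. Of 35 measured genes of phospholipid and triacylglycerol metabolism 1 was lower in both states (2.86%), and of 29 genes of fatty acid oxidation 2 were (6.90%), or 0 with TMM factors. Glycan genes included the sialyltransferases St6gal1 (27.7 and 3.62 CPM, then 57.6 and 12.9 CPM) and St8sia4. Of 51 measured glycosyltransferase and sulfotransferase genes 3 were lower in both states (5.88%), and the sialyltransferases St3gal1 and St3gal3 were at least 2-fold higher in both. Genes of cell death included Bmf, Pidd1 and Siva1. Iron and haem genes included the ferrireductase Steap3 (3.41-fold and 2.29-fold lower) and the haem exporter Flvcr1 (2.36-fold and 2.79-fold). Surface genes of T cells and other leukocytes were Cd28 (29.6 and 10.9 CPM, then 51.8 and 22.6 CPM) and the checkpoint gene Vsir (83.4 and 24.4 CPM, then 167 and 60.4 CPM). The summed T and NK cell markers were at 1.25 to 7.81 CPM, and 7 or 8 of those 10 markers were at 0 in each library.

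Across 38 gene lists and families the share of genes lower in both states was above that of all genes in 20. No gene was lower in both states among 70 mitochondrial ribosomal proteins, 19 Wnt genes, 17 protein tyrosine phosphatases, 13 semaphorin, plexin and neuropilin genes, 10 cathepsins, 5 tetraspanin and Ms4a genes and 4 purinergic receptors. Of 145 C2H2 zinc finger genes 3 were lower in both (2.07%), so the share in this large family was below that of all genes. The lists hold 90 of the 286 genes, and their shares describe these libraries only.

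**Figure D3:**
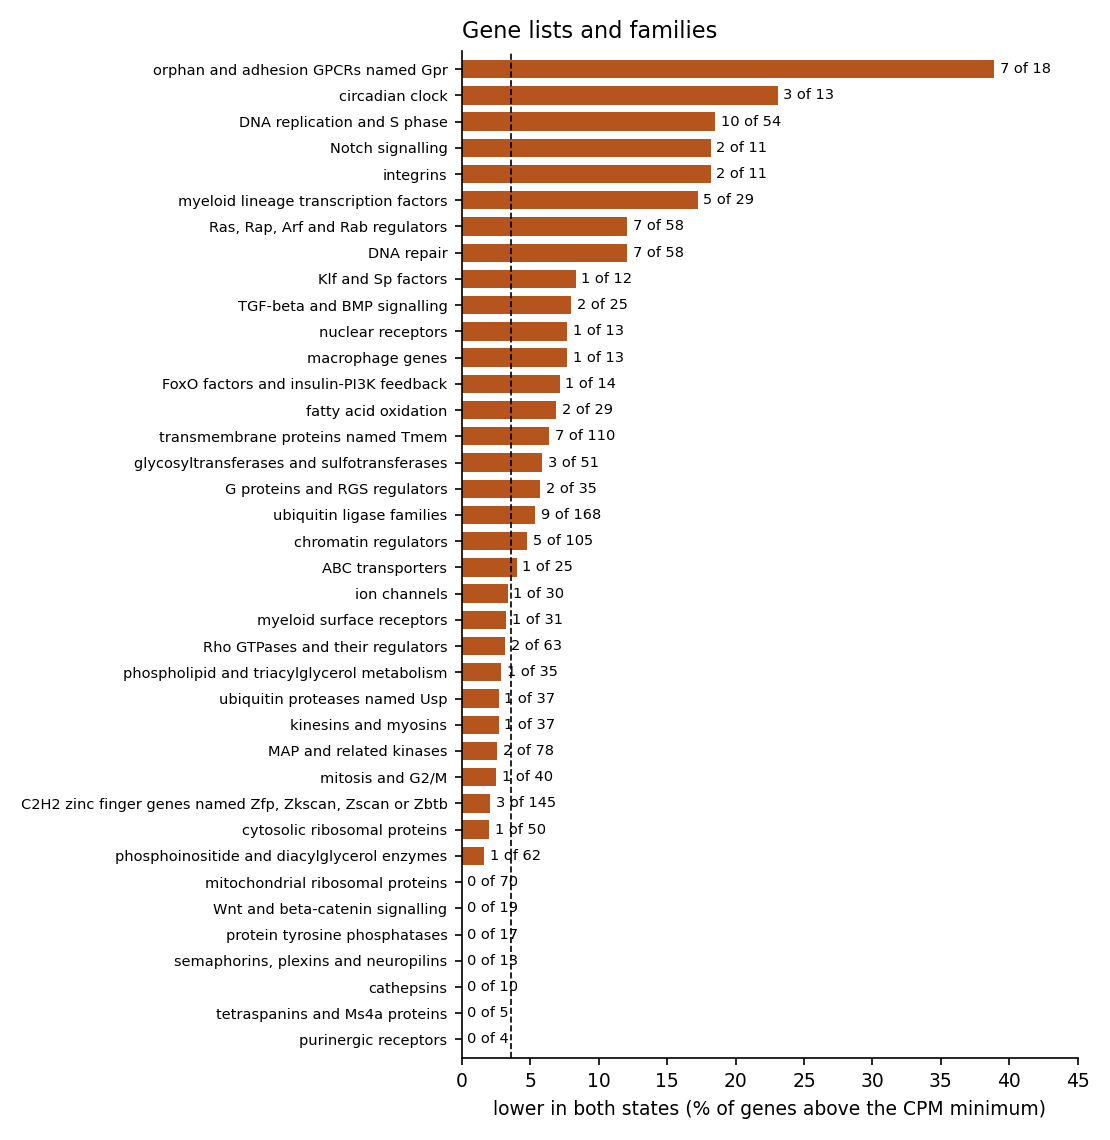
Share of measured genes of each list or family that were at or below a CPM ratio of 0.5 in both shRNA states, in percent, with the count of genes written beside each bar and the dashed line at the 3.62% of all 8414 genes. The bars are longest for the Gpr and adhesion receptor families (7 of 18) and shortest, at 0, for 7 lists at the bottom.

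The rule set no limit on the ratio of shRNA to no shRNA, but it is not independent of the rule. Each unstimulated library had to hold 5 CPM, and the shRNA ratio after Pam3Cys4 is the one before it multiplied by the quotient of the selecting ratios. Its counts are therefore a description. Before stimulation 23 of the 286 stood at least 2-fold higher with shRNA (8.04%, against 3.78% of all genes) and 33 at least 2-fold lower (11.5%, against 3.05%). After Pam3Cys4 39 were higher (13.6%, against 5.65%) and 29 lower (10.1%, against 3.95%). In neither stimulation state were 206 of the 286 genes 2-fold apart. Both directions were about equally common, and 23 genes were higher and 21 lower in both stimulation states. The shares of all genes apart in neither state, or in both, were not counted. Jag2 had the lowest ratios in both, 18.9-fold (17.9 to 20.1) and 23.9-fold (21.1 to 27.1) lower with shRNA, followed before stimulation by Gas6 (13.3-fold lower), Angptl2 (9.03-fold), Plau (8.41-fold) and Dmpk (7.13-fold). After Pam3Cys4 Dmpk was 14.2-fold lower with shRNA (12.4 to 16.5). On the other side stood Ndrg4, at 17.7 and 7.33 CPM without shRNA and at 183 and 85.5 CPM with shRNA, 10.4-fold (9.67 to 11.1) higher before and 11.7-fold (10.5 to 12.98) higher after Pam3Cys4. Gpr162 was 7.35-fold and 6.13-fold higher, Mertk 7.27-fold and 7.001-fold, and Asb4 6.20-fold and 3.96-fold. For these genes the level at rest was several-fold apart between the shRNA states and yet the ratio to Pam3Cys4 was at or below 0.5 in both, as the rule requires.

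None of the 48 cell cycle and repair genes was 2-fold apart between the shRNA states in either stimulation state, against 80 of the 238 other members. Among all 8414 genes such differences were also uncommon, but the share apart in either state was not counted for them. Their shares are known by state and direction only, so 0 of 48 and 80 of 238 have no like share beside them. Before stimulation 3.78% were 2-fold higher and 3.05% lower with shRNA, and after Pam3Cys4 5.65% and 3.95%. Ratios of shRNA to no shRNA in the 48 genes ran from 0.51 (Cdkn2c) to 1.42 (Gins3) in unstimulated cells. After Pam3Cys4 they ran from 0.59 (Mis18a) to 1.96 (E2f8), so Cdkn2c and E2f8 lay close to the 2-fold limit. All 80 genes with a 2-fold shRNA difference thus lay outside these classes. On the log2 scale the median shRNA ratio of the 286 was -0.12 before and 0.12 after Pam3Cys4, against -0.10 and -0.02 for all 8414 genes.

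**Figure D4:**
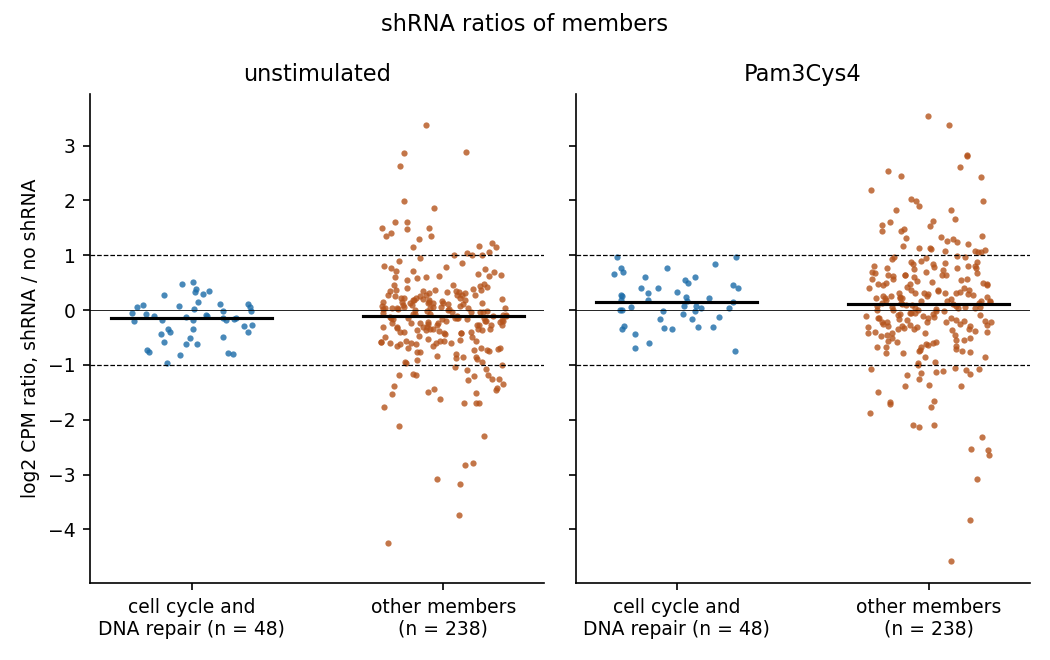
Log2 CPM ratio of shRNA to no shRNA for the 48 cell cycle and DNA repair genes and the 238 other members, in unstimulated cells (left) and after Pam3Cys4 (right), with 1 point per gene, spread sideways at random, a bar at the median and dashed lines at a 2-fold difference. All points of the cell cycle and repair genes lie between the dashed lines, and those of the other members reach from below -4 to above 3.

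The size of the Pam3Cys4 change also differed between the shRNA states, although these values come from the ratios that chose the genes. It was larger without shRNA in 207 genes and larger with shRNA in 79, and the median gene had a 1.23-fold larger change without shRNA, against 1.05-fold for all genes. Among all 8414 genes the ratio was lower without shRNA in 5090 and lower with shRNA in 3324, so most genes leaned the same way. A change at least 2-fold larger was counted in 12 genes without shRNA (all genes 1.60%) and in 1 with shRNA (all genes 0.737%). Zfp395, a zinc finger factor, was at 44.9 and 2.96 CPM without shRNA and at 105 and 30.7 CPM with shRNA, a 4.42-fold (3.73 to 5.25) larger change without shRNA and, at 15.2-fold lower, the largest change of the 286 there. Zfyve28, an endosomal FYVE protein, was at 9.31 and 0.731 CPM without shRNA and at 15.6 and 3.99 CPM with shRNA. Kank2, a regulator of actin at adhesions, was at 64.3 and 5.85 CPM without shRNA and at 42.8 and 10.1 CPM with shRNA. In these genes the lowest of the 4 libraries was the stimulated one without shRNA. Eya4 and Gas6 followed, with changes 2.52-fold and 2.30-fold larger without shRNA. In the opposite direction Rnf150, a ubiquitin ligase gene, was at 14.2 and 6.58 CPM without shRNA and at 8.57 and 1.498 CPM with shRNA, a 2.66-fold (2.05 to 3.44) larger change with shRNA. Dmpk (1.996-fold), Ldlrad4 (1.91-fold), Mex3b (1.81-fold) and Klhl6 (1.77-fold) came next.

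The limits of the rule cut through a continuous range. Crip1, Pank1 and Tedc1 lay just inside with larger ratios of 0.4991, 0.4987 and 0.4985, and Bola1, Trem2 and Spsb2 just outside with 0.5003, 0.5004 and 0.5006. At the CPM minimum Mettl7a1 (5.11 CPM), Cep97 (5.15) and Sox4 (5.17) were inside, and P2ry13 (4.998), Rhebl1 (4.89) and Acvr2b (4.89) outside. Rps13, Nlrp1b and Mettl7a1 have near-identical copies in the genome and their values are uncertain. The 84 genes without a class had medians of 2.90-fold and 2.51-fold lower, near those of the whole group.

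The annotated transcripts of the 286 genes were somewhat long and GC-rich. In the GENCODE models the median transcript was 3504 bases, against 3022 for measured genes that were not members, and the median 3' untranslated region 1224 against 957 bases. That difference came from the other classes, with a median of 1434 bases, while the cell cycle and repair members had 623.5 bases and 13 exons. Median transcript GC content was 52.7%, against 50.7%. Copies of the AU-rich pentamer ATTTA, counted because it marks unstable transcripts, had a median of 0.98 per kb of 3' untranslated region in members and 1.33 in the other genes, and the octamer TTATTTAT was in 13.8% and 13.7% of them. The 430 genes at or below 0.5 without shRNA alone had similar medians of 3336 bases, 52.5% GC and 1.04 pentamers per kb. Their median 3' untranslated region was 1018 bases, and 10.7% held the octamer. Length, GC content and pentamers were thus not particular to the 286.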

How the data were processed

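Transcripts were measured by mRNA sequencing (50 bp reads) in 4 libraries, 1 per group. The deposited values are whole-number read counts per gene. Per the submitters' processing notes, the authors used CASAVA 1.8, TopHat and HTSeq with genome build NCBIM37; the annotation release is not given in the sources used here, nor are other versions or strandedness. Lines that name no gene held 32.5 to 34.4% of each table's total, including 27.0 to 29.9% of alignments that were not unique, and were left out, so genes with close copies are undercounted.

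Symbols and coding status came from GENCODE vM21, which gave symbols to 32661 of 37681 gene IDs; it is on another build, and no coordinates of counted genes were taken from it. CPM were counts over the sum of gene reads. Ratios have exact conditional binomial 95% intervals, and ratios of ratios (minimum 10 counts in every library) have delta-method intervals. Intervals cover counting error only. No p-value was computed, since 1 library per group leaves no replicate spread, and edgeR was used only for scaling. The selection and intervals were tested on simulated counts that held counting error only, so spread between cultures or animals was not covered. Scaling alternatives used edgeR 4.0.16 TMM and DESeq2 1.42.0 size factors in R 4.3.3.

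The members, gene lists, motifs and rules for named genes were chosen with earlier results of these data known, and classes were assigned by hand from known gene function after the members were listed. Named genes were the 20 with the lowest larger ratio, the 10 with the highest unstimulated CPM, up to 5 per class or list, the 5 highest and 5 lowest shRNA ratios and ratios of ratios, and genes next to a threshold; others, such as Cdc6, Nusap1 and companion genes of the same pathways, were chosen after their values were seen. CPM are not corrected for transcript length. The targeted lncRNA is not reported here, nor are several members.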

Additional observations from a re-analysis of the deposited data

How the results depend on the processing

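No replicate could be left out, because each group was 1 library. No paired analysis was possible because the compared groups share a single replicate number. Of 64 values for the comparisons under other settings, 46 stayed close and 18 moved. Close was a wide label for counts, and the fall from 286 to 192 genes with TMM factors came under it. Most of these values are counts, which cannot change sign. The median Pam3Cys4 ratios are held below 1 by the rule, and a reversal was not sought for the shRNA medians, which were small. That 0 reversals were counted therefore carries no weight. With TMM factors the genes at least 2-fold lower with shRNA before stimulation numbered 21 instead of 33, and 192 of the 286 genes met the rule, 207 with DESeq2 factors. With a minimum of 1 CPM the genes 2-fold higher and lower with shRNA were 42 and 61 before and 67 and 58 after Pam3Cys4, and a change 2-fold larger without or with shRNA was found in 23 and 3. With a minimum of 10 CPM, 19 genes were 2-fold lower with shRNA after Pam3Cys4 and 0 had a change 2-fold larger with shRNA. With 10 counts as the only minimum 527 genes met the rule, of which 62 and 94 before and 85 and 82 after Pam3Cys4 were 2-fold higher and lower with shRNA, 25 and 4 had a 2-fold larger change without or with shRNA, and 141 were in a list. A ratio limit of 0.4 left 120 genes. Starting promoters at 150 instead of 250 bases before the start, 16.3% of promoters of cell cycle and repair members held the E2F motif instead of 22.4%. Depth did not limit the members, whose lowest count was 27, but genes below 5 CPM were left out. Of 117 further values, such as those of single lists and leading genes, 45 stayed close and 72 moved. The causes of these shifts were not tested beyond the settings themselves.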

Other observations

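Genes at or below the ratio limit in 1 shRNA state alone numbered 430 without shRNA and 82 with shRNA, and a few of them had ratios on opposite sides of 1. The genes named here were chosen after their values were seen. Maf, a macrophage transcription factor, was at 119.9 and 42.1 CPM without shRNA (unstimulated, then Pam3Cys4) and at 25.8 and 88.5 CPM with shRNA, a ratio of 0.351 in the first state and 3.43 in the second. Irf5, a factor of inflammatory cytokine transcription, was at 139.8 and 57.98 CPM without shRNA and at 146.4 and 235.9 CPM with shRNA. Bcl6, a transcriptional repressor, was at 76.4 CPM before stimulation without shRNA and at 87.2 CPM with shRNA, with ratios of 0.462 and 1.41 after Pam3Cys4. For Irf5 and Bcl6 the unstimulated libraries were close to each other and the stimulated ones were apart, while Maf also differed before stimulation.

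The reverse pattern was seen for Il1rl1, which encodes the IL-33 receptor, at 19.3 and 43.5 CPM without shRNA and at 5.59 and 2.41 CPM with shRNA. Irs2, an insulin receptor substrate, was at 10.3 and 14.9 CPM without shRNA and at 8.11 and 3.65 CPM with shRNA, and Abcd2, a peroxisomal transporter, was 1.60-fold lower without shRNA and 5.36-fold lower with shRNA. These differences have 1 library behind each value and share any difference in animals or cells between the shRNA states.

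Among the genes left out by name, Cxcr4, the CXCL12 receptor, was at 8.80 and 0.693 CPM without shRNA and at 51.2 and 4.04 CPM with shRNA, 12.7-fold lower in both states. Lpin1, a phosphatidate phosphatase, was 8.06-fold and 7.39-fold lower, and the p53 target Sesn1 8.98-fold and 4.21-fold lower.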
